A study of Mus musculus with 43 samples.

Results

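Morulae that developed from oocytes lacking the Polycomb genes Pcgf1 and Pcgf6 (maternal double knockout, matDKO) were compared with wild-type (WT) morulae by RNA sequencing. The 20 libraries, 10 per group, are all those that the study's labels give these 2 genotypes at the morula stage, of 43 libraries in the series. The labels give the matDKO genotype as a maternal knockout, so the deletion is that of the mother's germ line, and name no change for the WT group. The Cre line or promoter behind the deletion, the sire, the strain, the sex of the embryos, the number of embryos in each library and whether libraries came from separate animals are not given in the sources used here. P-values therefore measure the spread between these libraries, which may be technical. Another 10 morula libraries (maternal triple knockout of Pcgf1, Pcgf6 and Mll2, matTKO) and 3 DKO and 3 WT full-grown oocyte libraries of the same study were used only where stated. Libraries of polyA RNA were built by SMART-Seq v4 and Nextera XT, which keep no strand, so overlapping antisense genes cannot be told apart.

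PRC1, one of the Polycomb complexes, silences genes and attaches ubiquitin to histone H2A, and PCGF1 and PCGF6 are subunits of 2 of its variant forms. In mouse preimplantation embryos the paternal X chromosome is silenced by Xist, a noncoding RNA that coats the chromosome it is made from. The maternal copy of Xist is kept off by a Polycomb mark, H3K27me3, laid down in the oocyte. A gene carried over from the oocyte in this chromatin state, rather than in DNA methylation, is called noncanonically imprinted. The sets of genes described here were the X-inactivation centre, the rest of the X chromosome, the noncanonically imprinted genes, the first cell lineages of the embryo and the Polycomb complexes themselves.

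The promoters of 4 X-linked genes around which the results turn are given here, from 250 bases before to 50 bases after the gene start, as RefSeq has them in GRCm38.p6. Xist and Ftx are noncoding genes of the X-inactivation centre whose levels in matDKO lay above those in WT among libraries with Y-linked RNA, and Pgk1 and Msn are the protein-coding X-linked genes with the largest falls. Capitals mark the dinucleotide CG, which reads the same on both strands and is the site of DNA methylation. Xist lies at chrX:103483184-103483483 on the minus strand, Ftx at chrX:103623705-103624004 on the minus strand, Pgk1 at chrX:106186850-106187149 on the plus strand and Msn at chrX:96095795-96096094 on the plus strand.
Xist: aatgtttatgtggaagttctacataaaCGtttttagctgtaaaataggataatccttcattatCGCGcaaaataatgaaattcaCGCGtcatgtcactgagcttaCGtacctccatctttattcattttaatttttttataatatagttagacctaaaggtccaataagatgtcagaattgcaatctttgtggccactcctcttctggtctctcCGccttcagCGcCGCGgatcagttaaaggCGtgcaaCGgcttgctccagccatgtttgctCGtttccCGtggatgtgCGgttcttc
Ftx: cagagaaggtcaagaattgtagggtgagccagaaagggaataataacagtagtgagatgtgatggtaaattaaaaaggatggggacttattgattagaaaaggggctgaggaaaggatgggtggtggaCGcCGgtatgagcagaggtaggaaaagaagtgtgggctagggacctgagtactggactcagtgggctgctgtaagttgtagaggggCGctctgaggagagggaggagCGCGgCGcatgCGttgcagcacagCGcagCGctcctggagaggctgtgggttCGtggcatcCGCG
Pgk1: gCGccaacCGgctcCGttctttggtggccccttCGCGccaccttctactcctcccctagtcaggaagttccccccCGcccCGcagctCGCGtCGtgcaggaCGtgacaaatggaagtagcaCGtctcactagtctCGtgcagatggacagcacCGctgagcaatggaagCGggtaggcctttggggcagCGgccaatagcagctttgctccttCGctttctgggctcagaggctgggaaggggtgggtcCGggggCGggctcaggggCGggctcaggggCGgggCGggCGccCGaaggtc
Msn: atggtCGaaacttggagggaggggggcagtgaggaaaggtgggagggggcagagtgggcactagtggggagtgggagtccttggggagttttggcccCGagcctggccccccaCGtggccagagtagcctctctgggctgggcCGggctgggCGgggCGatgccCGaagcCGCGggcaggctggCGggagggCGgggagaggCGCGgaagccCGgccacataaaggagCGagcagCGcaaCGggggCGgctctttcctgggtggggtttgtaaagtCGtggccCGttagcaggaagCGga
The windows hold 15 CG dinucleotides at Xist, 12 at Ftx, 24 at Pgk1 and 21 at Msn. Of 32851 RefSeq promoter windows of the same length, 34.6% hold at least as many as Xist, 39.6% as many as Ftx and 24.8% as many as Msn. The promoters of both protein-coding genes were denser in CG than those of both noncoding genes.

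The deposited values are TPM (abundance per transcript length, with a total that is the same for all libraries), and the sequencing depth is unknown. Between 10902 and 12240 genes reached 1 TPM in matDKO libraries, and between 11638 and 12432 in WT libraries. Y-linked RNA divided the libraries without intermediates. Its summed level was 45.5 to 67.5 TPM in matDKO replicates 3, 6 and 10 and at most 0.62 TPM in the other 7, and it was 59.9 to 74.4 TPM in WT replicates 2 to 6 and at most 0.28 TPM in the other 5. On the first principal component (28.8% of the variance) matDKO replicates 8 and 9 and WT replicate 9 scored highest, at 72.31, 103.9 and 47.51. They were followed by matDKO replicates 6, 7 and 10, at 34.96, 23.9 and 17.09, and the remaining libraries were below 0. WT replicate 9 lay nearer to matDKO replicate 6 than to matDKO replicate 8, so this component alone left no clear gap. MatDKO replicates 8 and 9 and WT replicate 9 are called the 3 libraries that stood apart. They also had the highest summed level of genes of the 2-cell stage, at 677 and 863 TPM in matDKO and 928 TPM in WT, against 84.0 to 246 TPM in the remaining 17. None of the 3 held Y-linked RNA. The X-linked count and share and the trophectoderm values are given without them as well. On the second component (10.9% of the variance) matDKO replicate 7 lay farthest out, at -74.06, beside -26.8 for matDKO replicate 6 as the next. It was kept when those 3 libraries were left out. The granulosa markers Fshr and Has2 were at 0 in all 20 libraries, Amh, Inha and Cyp19a1 stayed below 1 TPM, and Vim reached 4.0 TPM in matDKO and 1.69 TPM in WT libraries. Of the blood and stroma markers Ptprc and Col3a1 were at 0.03 TPM or less, Col1a1 was at 0.31 TPM or less, Hbb-bs reached 2.78 TPM in matDKO and was at 0 in all WT libraries, and Hba-a1 reached 11.2 TPM in matDKO and 6.87 TPM in WT libraries. Of 4 oocyte markers, the zona gene Zp3 stood at 0.71, 12.2 and 37.2 TPM (lowest, median and highest) in matDKO libraries, against 1.31, 3.55 and 13.3 TPM in WT libraries. The medians of the other three were 0.58 TPM in matDKO and 0.46 TPM in WT for Gdf9, 0.04 TPM in matDKO and 0.235 TPM in WT for Bmp15, and 0.04 TPM in matDKO and 0 in WT for Oosp1. The part of these markers in the results was not tested.

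The labels were checked on the deleted genes. Pcgf1 (chromosome 6 of GRCm38, 83077552 to 83080855) was measured at 5.23, 10.1 and 15.6 TPM (lowest, median and highest) in matDKO libraries, against 17.2, 22.6 and 33.2 TPM in WT libraries. Every matDKO library lay below every WT library, and Pcgf1 fell by 1.19 ± 0.17 on the log2 scale (adjusted p = 5.83e-04). Pcgf6 (chromosome 19, 47033617 to 47050939) averaged 20.3 ± 6.01 TPM in matDKO libraries and 23 ± 5.61 TPM in WT libraries (SD, n = 10 each), with overlapping groups and no call (log2 change -0.19 ± 0.18, adjusted p = 0.556). Kmt2b, the gene of MLL2 (chromosome 7, 30568855 to 30589056), averaged 9.55 ± 2.42 TPM in matDKO libraries and 6.69 ± 2.87 TPM in WT libraries and was not called (log2 change 0.49 ± 0.19, adjusted p = 0.162). The table gives no allele, so maternal and paternal copies of the deleted genes cannot be told apart in these levels.

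Across 12733 tested genes, 57 (0.448%) were called higher and 185 (1.45%) lower in matDKO than in WT morulae at an adjusted p under 0.05 in limma. The median log2 change of all tested genes was -0.10. With quantile normalization it was 0.00, with 128 genes higher and 187 lower, and with median-ratio scaling it was -0.02, with 96 higher and 181 lower. The share of lower among all calls therefore depended on the scaling. All 59 called genes among the named ones kept their call under both scalings. Many of them were named for large changes or small p-values, so this does not speak for the remaining calls. Leaving out 1 library at a time gave 13 to 129 higher and 62 to 471 lower calls. The extremes were reached without WT replicate 5 and without WT replicate 9. Without any 1 of WT replicates 1, 2, 3, 6, 7 and 8 and matDKO replicates 6 to 10, between 75 and 116 genes were lower, and without those WT replicates other than 1 or without matDKO replicates 6, 8, 9 and 10 between 16 and 32 were higher. Among the 12733 genes 17 (0.134%) had every matDKO library below every WT library, and 10 of these are X-linked. For 3 genes (0.0236%), Nfe2l1, Rpl29 and Tmem64, every matDKO library lay above every WT library.

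The X chromosome carried more of the lower calls than any autosome. Of 400 tested X-linked genes 65 (16.2%) were lower and 1, Ftx, was higher, while of 11961 autosomal genes 116 were lower and 55 higher. X-linked genes made up 3.14% of the tested genes and 35.1% of the lower calls. The share of lower genes ran between 0.154% (chromosome 17) and 2.19% (chromosome 6) on the autosomes. The median log2 change was -0.44 on the X chromosome, where 320 of 400 genes had a negative change, and between -0.18 (chromosome 2) and -0.03 (chromosome 12) on the autosomes. With quantile normalization 60 X-linked genes were lower and the X median was -0.33. The X count was between 38 and 83 when single libraries were left out, with 38 without WT replicate 5 and 42 without WT replicate 7, and it was 75 without the 3 libraries that stood apart.

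**Figure D1:**
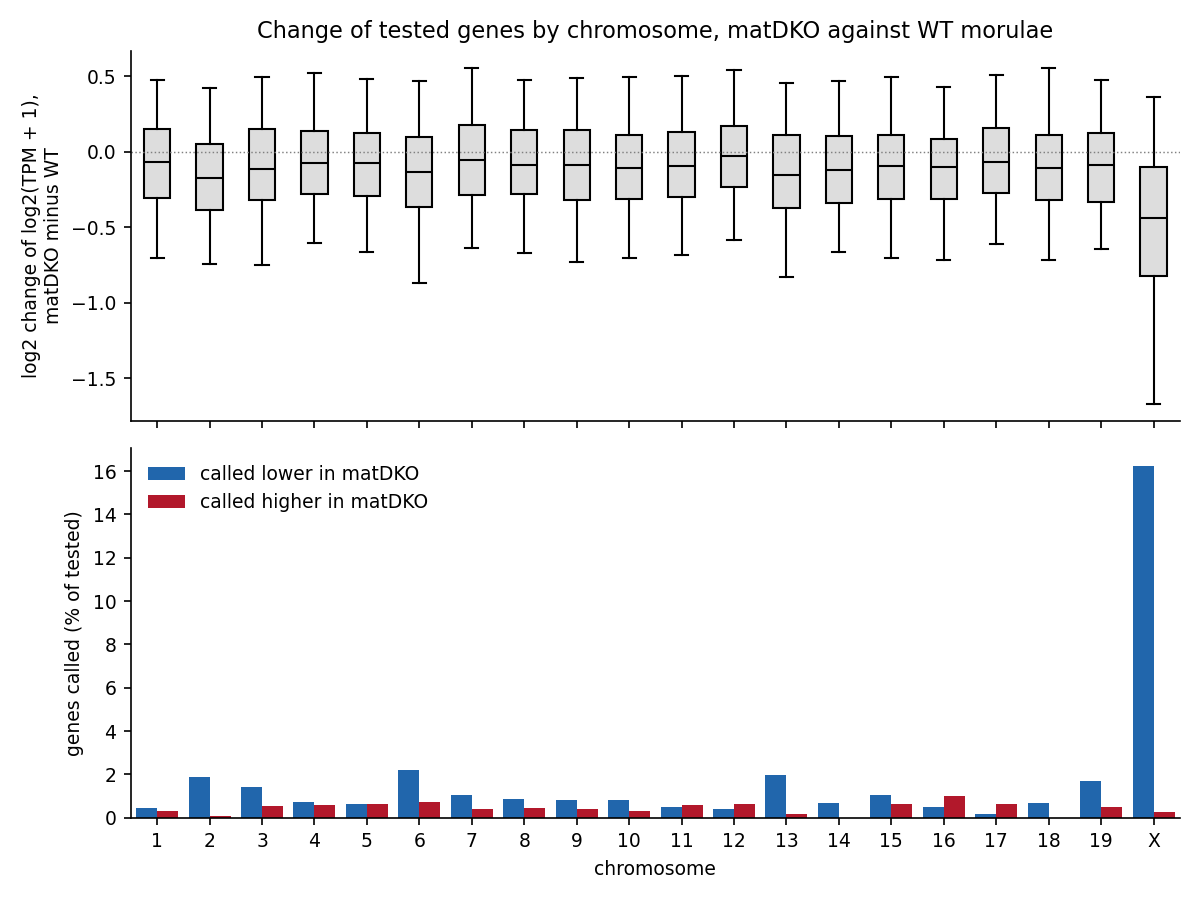
Upper panel: log2 change (matDKO minus WT, log2 of TPM + 1) of the tested genes of each chromosome, with the median as a line, quartiles as boxes and whiskers at percentiles 5 and 95. Lower panel: percent of tested genes called lower (blue) or higher (red) in matDKO. The X chromosome has the lowest median, at -0.44, and the largest share of lower genes, at 16.2%, while its box overlaps those of the autosomes.

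Xist (chromosome X, 103460373 to 103483233, minus strand) was measured in both kinds of library separately, because its level in WT differed with the presence of Y-linked RNA. Among libraries with Y-linked RNA it stood at 27.1, 30.6 and 24.7 TPM in the 3 matDKO libraries, against 6.65, 5.13, 11.6, 1.74 and 2.85 TPM in the 5 WT libraries. The groups did not overlap, and Xist rose by 2.30 ± 0.40 on the log2 scale (limma adjusted p = 0.00964 in 1 fit of all 4 groups). Fitted on these 8 libraries alone, the call was lost, with the same change and an adjusted p of 0.0820. Among libraries without Y-linked RNA it stood at 51.5, 60.3 and 120.4 TPM (lowest, median and highest of 7) in matDKO, against 46.5, 33.6, 23.3, 67.8 and 37.6 TPM in WT. These groups overlapped, and the change of 0.80 ± 0.32 was not called (adjusted p = 0.520). The difference between both changes was 1.51 (unadjusted p = 0.00794, adjusted p = 0.999), so it was not shown that they differ. Over all 20 libraries Xist averaged 59 ± 30.7 TPM in matDKO libraries and 23.7 ± 22.2 TPM in WT libraries and missed the threshold (log2 change 1.81 ± 0.51, adjusted p = 0.0662). It passed with all 30 morulae in the fit (adjusted p = 0.0384), with library weights (0.0458), with the Y-linked level as a covariate (0.0364) and without WT replicate 9 (0.0218).

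Ftx, a noncoding RNA gene of the same centre (chromosome X, 103560910 to 103623754) known as a positive regulator of Xist, stood at 6.35, 10.2 and 21.3 TPM (lowest, median and highest) in matDKO libraries, against 0.37, 2.95 and 10.4 TPM in WT libraries. It rose by 1.70 ± 0.33 on the log2 scale (adjusted p = 0.0104), the only X-linked gene called higher over the 20 libraries. With Y-linked RNA its range was 6.35 to 9.71 TPM in matDKO, against 0.37 to 1.83 TPM in WT, and it rose by 2.06 ± 0.34 (adjusted p = 0.00629, and 0.0435 when those libraries were fitted alone). Without Y-linked RNA it was 8.89 to 21.3 TPM in matDKO, against 4.07 to 10.4 TPM in WT, with ranges that overlapped and a change of 1.07 that was not called (adjusted p = 0.226). Tsix, the antisense partner that covers all of Xist (chromosome X, 103431517 to 103484957), averaged 115 ± 99.6 TPM in matDKO libraries and 69.7 ± 69.9 TPM in WT libraries and was not called (log2 change 1.51 ± 0.78, adjusted p = 0.29). Reads of the shared stretch can come from either strand, so the split between Xist and Tsix is uncertain. Rlim, an X-linked ubiquitin ligase that activates Xist (chromosome X, 103957163 to 103981296), stood at 1.71, 6.93 and 15.9 TPM in matDKO libraries, against 9.42, 18.9 and 27.9 TPM in WT libraries. It fell by 1.54 ± 0.27 on the log2 scale (adjusted p = 0.0037), with groups that overlapped.

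The share of the library total that came from X-linked genes was compared within each kind of library too. With Y-linked RNA it was 1.79%, 2.02% and 1.84% in matDKO, against 2.39%, 2.45%, 2.48%, 2.58% and 2.37% in WT. Every matDKO library lay below every WT library (difference -0.574 percentage points, exact two-sided permutation test p = 0.01786, the smallest that 56 arrangements allow, and 0.0357 adjusted over both kinds). Without Y-linked RNA it was 1.26%, 2.94% and 3.51% (lowest, median and highest of 7) in matDKO, against 3.31% to 3.41% in 5 WT libraries. The difference of -0.5345 did not pass (exact two-sided p = 0.0846, also after adjustment). The highest values, 3.44% and 3.51%, belonged to matDKO replicates 8 and 9, and the lowest to matDKO replicate 7. Without the 3 libraries that stood apart, a choice made after seeing the data, the remaining 5 matDKO libraries at 1.26% to 2.95% lay below the 4 WT libraries at 3.34% to 3.41% (difference -0.8058, exact p = 0.02381). Without matDKO replicate 7 the difference was -0.2731 (exact p = 0.07143). Pooled over all 20 libraries, where 3 of 10 matDKO and 5 of 10 WT libraries held Y-linked RNA, the means were 2.54 ± 0.763% in matDKO and 2.91 ± 0.479% in WT (permutation p = 0.213 with 100000 resamples).

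**Figure D2:**
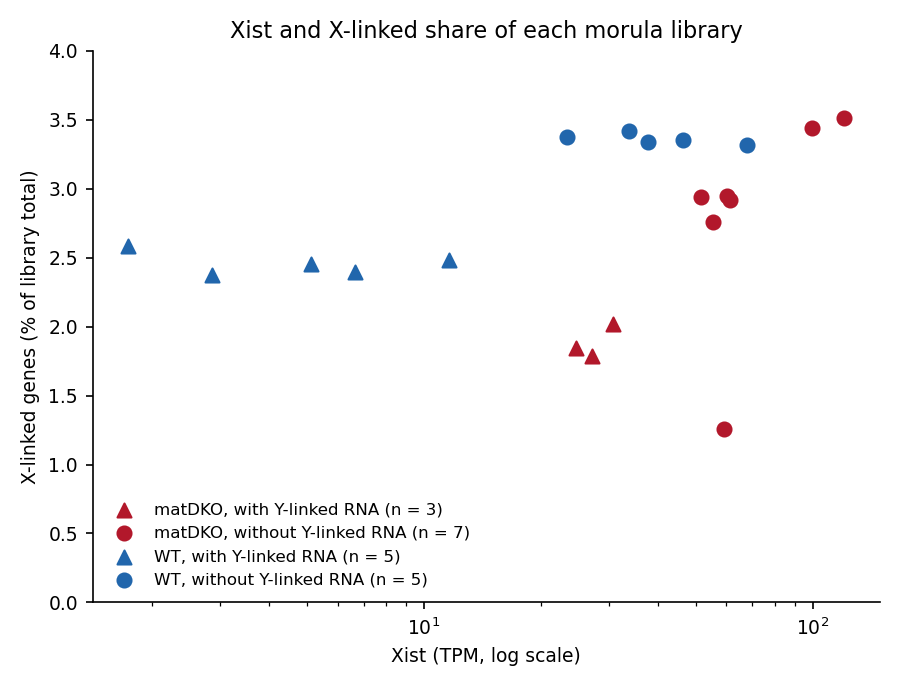
Each point is 1 library, with its Xist level (TPM, log axis) across and the percent of its total from X-linked genes upwards. The 3 matDKO libraries with Y-linked RNA (red triangles) lie to the right of and below the 5 WT libraries with it (blue triangles), while the circles, libraries without Y-linked RNA, overlap in both measures.

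Among the 65 X-linked genes called lower, the log2 changes ran between -0.73 and -3.80 with a median of -1.47, and 53 fell by at least 1. Their WT means reached 447 TPM, so the set was not limited to weak genes. All 65 had a negative change both with and without Y-linked RNA. They were selected by their fall over these same libraries, so the shared sign is no separate support. As separate contrasts of 1 fit of all 4 groups, 15 X-linked genes were lower with Y-linked RNA, where 21 of all tested genes (0.165%) were, and 11 without it, where 13 of all (0.102%) were. There were 5 lower in both. Of all tested genes 4 (0.0314%) were higher with Y-linked RNA and 2 (0.0157%) without it. Each kind fitted alone gave 15 X-linked and 25 of all genes lower and 1 higher with Y-linked RNA, and 3 X-linked and 6 of all lower and 0 higher without it. The X median was -0.57 with Y-linked RNA and -0.45 without it, beside medians of -0.16 and -0.05 over all genes. A difference between both kinds of library was called for 0 of 12733 genes by limma, and 360 had an unadjusted p under 0.05, of which 25 are X-linked.

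Metabolic enzymes included the largest X-linked fall. Pgk1, phosphoglycerate kinase of glycolysis (chromosome X, 106187100 to 106203699), stood at 0, 2.54 and 9.55 TPM (lowest, median and highest) in matDKO libraries, against 17.4, 48.3 and 87.4 TPM in WT libraries. No matDKO library reached the lowest WT library, and Pgk1 fell by 3.80 ± 0.40 on the log2 scale (adjusted p = 4.39e-06). The change was -4.47 with Y-linked RNA and -3.27 without it. G6pdx, glucose-6-phosphate dehydrogenase of the pentose phosphate pathway, stood at 0.14, 3.47 and 8.8 TPM in matDKO libraries, against 2.26, 11.1 and 23.1 TPM in WT libraries, with overlap, and fell by 1.48 ± 0.36 on the log2 scale (adjusted p = 0.0365). Hsd17b10, a mitochondrial dehydrogenase, averaged 24.3 ± 12.9 TPM in matDKO libraries and 60.7 ± 20.2 TPM in WT libraries and fell by 1.38 ± 0.25 on the log2 scale (adjusted p = 0.00507). Gk, glycerol kinase, was below 1 TPM in all matDKO libraries, at 0, 0.51 and 0.91 TPM, against 1.52, 3.35 and 6.81 TPM in WT libraries, and fell by 1.64. Of 19 tested glycolysis genes Pgk1 was the only one lower and none was higher, with a list median of -0.29.

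Msn encodes moesin, which ties actin filaments to the plasma membrane (chromosome X, 96096045 to 96168553). It stood at 0, 0.82 and 5.83 TPM in matDKO libraries, against 10.9, 30.1 and 63.9 TPM in WT libraries. The groups did not overlap, and Msn fell by 3.79 ± 0.39 on the log2 scale (adjusted p = 3.48e-06). Its autosomal relative Rdx, radixin, stood at 7.86, 21 and 49.7 TPM in matDKO libraries, against 20.1, 53.2 and 81.6 TPM in WT libraries, with overlap, and fell by 1.01 ± 0.26 on the log2 scale (adjusted p = 0.0446). Pls3, the actin-bundling plastin 3 (chromosome X, 75785653 to 75875182), stood at 0.08, 1.78 and 4.23 TPM in matDKO libraries, against 9.2, 17.5 and 42.2 TPM in WT libraries, without overlap, and fell by 2.78 ± 0.28 on the log2 scale (adjusted p = 3.45e-06). Il2rg, the shared chain of several interleukin receptors, stood at 0, 1.73 and 3.53 TPM in matDKO libraries, against 6.99, 11 and 20.5 TPM in WT libraries, also without overlap, and fell by 2.54 ± 0.32 on the log2 scale (adjusted p = 1.06e-04). Plac1, a gene of the placenta, was at 0 in 6 of 10 matDKO libraries and at most 1.23 TPM there, against 0.2, 7.38 and 21.4 TPM in WT libraries. It fell by 2.74 ± 0.40 on the log2 scale (adjusted p = 5.04e-04), and the only WT library within the matDKO range was replicate 9.

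**Figure D3:**
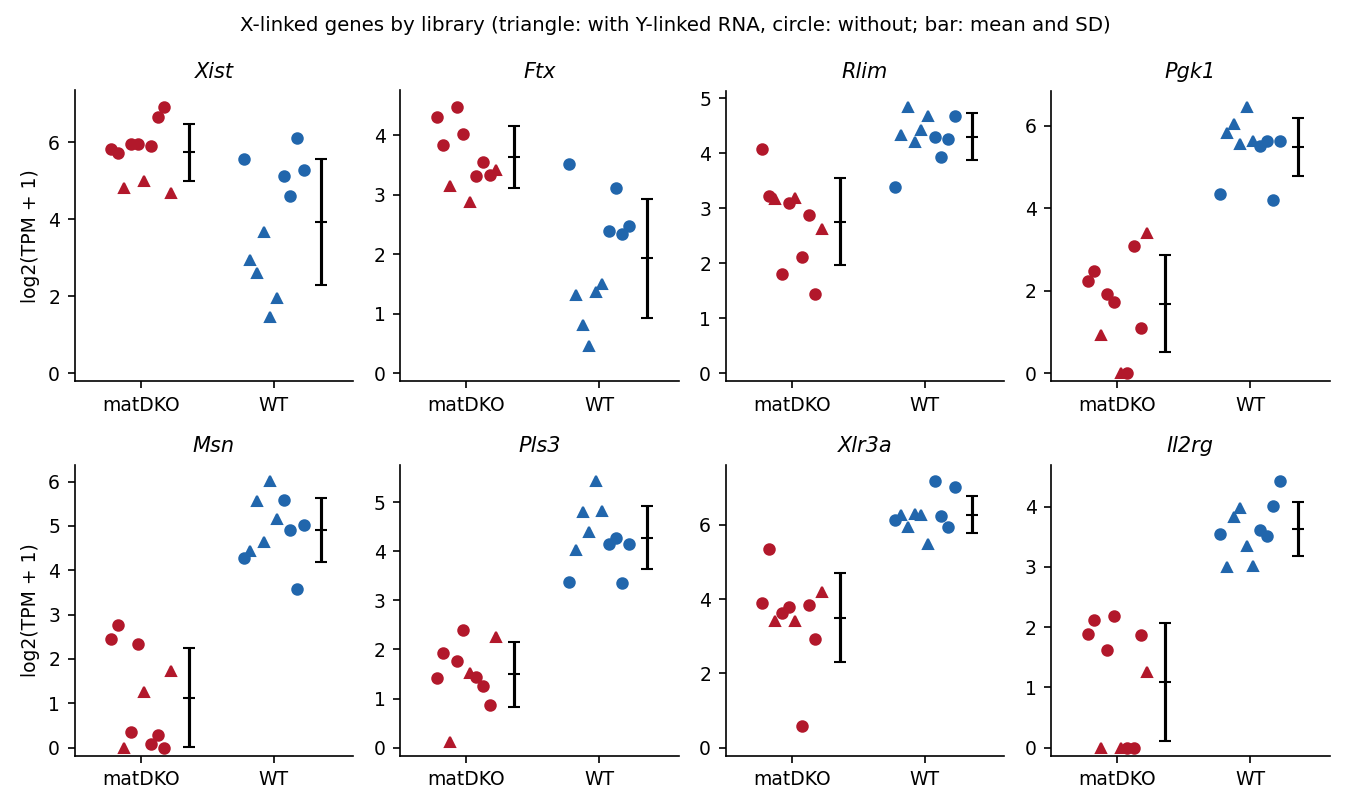
Level (log2 of TPM + 1) of 8 X-linked genes in each matDKO library (red, left) and each WT library (blue, right), with the mean and SD as black bars. Triangles mark libraries with Y-linked RNA. For Pgk1, Msn, Pls3, Xlr3a and Il2rg the groups do not overlap, for Xist and Ftx the matDKO triangles lie above all WT triangles, and Rlim is lower in matDKO with overlap.

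Members of the Xlr family (X-linked lymphocyte-regulated genes), which exists in multiple copies, fell as well. Xlr3a stood at 0.5, 12.1 and 39.6 TPM in matDKO libraries, against 43.9, 75 and 145 TPM in WT libraries, without overlap, and fell by 2.77 ± 0.38 on the log2 scale (adjusted p = 2.39e-04). Xlr3b, Xlr4b, Xlr4c, Xlr5b and Xlr5c fell by 2.29, 1.75, 1.78, 1.86 and 1.45 on the log2 scale. These copies may share reads and their sequences were not compared, so the assignment to a single copy is uncertain. These 6 Xlr genes are the lower ones among 14 tested (42.9%) in a list of Obox, Xlr and Rhox genes. The list median was -1.32, against -0.10 over all genes, of which 1.45% were lower. Xlr and Rhox genes are X-linked, and over all tested X-linked genes the median was -0.44 and 16.2% were lower. Mageb16, a member of another X-linked germline family, fell by 1.996, at 0, 5.49 and 12.7 TPM in matDKO libraries, against 6.7, 16.9 and 40.6 TPM in WT libraries. Apex2, a DNA repair endonuclease, fell by 2.25 without overlap, at 0, 1.6 and 3.41 TPM in matDKO libraries, against 4.15, 9.38 and 18.6 TPM in WT libraries. The X-linked gene C430049B03Rik fell by 2.03, at 0.34, 1.18 and 8.58 TPM in matDKO libraries, against 6.75, 10.6 and 14.6 TPM in WT libraries.

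Nono, an RNA-binding protein of paraspeckles, averaged 59.3 ± 27 TPM in matDKO libraries and 102 ± 14.4 TPM in WT libraries and fell by 0.91. Morf4l2, a subunit of histone acetylation complexes, averaged 97.9 ± 43 TPM in matDKO libraries and 177 ± 44.6 TPM in WT libraries and fell by 0.94. Magt1, part of a glycosylation complex, averaged 23.6 ± 12.6 TPM in matDKO libraries and 47.3 ± 7.15 TPM in WT libraries and fell by 1.10, Psmd10, a proteasome assembly chaperone, fell by 1.54, and Med12 of the Mediator complex fell by 0.74. Hprt, a purine salvage enzyme, averaged 869.7 ± 361 TPM in matDKO libraries and 1308 ± 258 TPM in WT libraries and missed the threshold (log2 change -0.72 ± 0.25, adjusted p = 0.121). The 4 genes Kdm6a, Kdm5c, Eif2s3x and Ddx3x, known to escape X inactivation in mouse, were not called over the 20 libraries either. Kdm6a averaged 10.3 ± 4.13 TPM in matDKO libraries and 9.81 ± 3.68 TPM in WT libraries (0.04), Kdm5c 5.64 ± 2.18 TPM in matDKO libraries and 6.58 ± 1.68 TPM in WT libraries (-0.23), Eif2s3x 72.6 ± 33.8 TPM in matDKO libraries and 76.6 ± 16.2 TPM in WT libraries (-0.23) and Ddx3x 103 ± 46.5 TPM in matDKO libraries and 87.4 ± 16.7 TPM in WT libraries (0.13). Among libraries with Y-linked RNA, Eif2s3x was at 41.5 to 52.6 TPM in matDKO, against 54.0 to 70.4 TPM in WT, without overlap. Kdm6a, Kdm5c and Ddx3x overlapped there, and without Y-linked RNA all 4 did. Of 53 tested genes in a list of broadly used X-linked genes and genes of the X-inactivation centre, 9 (17%) were lower and 1 higher, with a median of -0.23, beside 16.2% lower and a median of -0.44 over all tested X-linked genes. The genes Nono, Morf4l2, Magt1, Med12, Hsd17b10, G6pdx, Gk, Hprt, Tsix, Xlr4b, Xlr5c and those 4 were singled out after their values were seen.

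Lower genes were not spread evenly along the X chromosome. Within 5 Mb of Xist 14 of 39 tested genes (35.9%) were lower, with a median log2 change of -0.60. Between 5 and 20 Mb 5 of 31 (16.1%) were, between 20 and 40 Mb 26 of 108 (24.1%) and between 40 and 60 Mb 18 of 99 (18.2%), with medians of -0.51, -0.59 and -0.52. Beyond 60 Mb 2 of 122 (1.64%) were lower, with a median of -0.16. The distant genes were mostly at the centromeric end. There 1 of 105, Slc25a43, was lower and the median over the 20 libraries was -0.14, beside -0.10 over all tested genes. The 17 distant genes on the telomeric side had 1 lower gene, Pir, and a median of -0.50. Within 60 Mb, 42 of 164 centromeric genes (25.6%) and 21 of 113 telomeric genes (18.6%) were lower. By mean level over the 20 libraries, the share of lower genes was 13.9% below 5 TPM, 21.8% between 5 and 20 TPM and 14.5% from 20 TPM up. These distance classes were set after the values were seen and carry no test.

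The stretches near to and far from Xist were also described library by library. The near stretch holds most of the genes called lower in these libraries, so its separation restates that choice and carries no test. The mean log2 level of the 277 genes within 60 Mb of Xist was 2.09, 2.997 and 3.26 (lowest, median and highest) in matDKO libraries, against 3.31, 3.51 and 3.73 in WT libraries, so no matDKO library reached the lowest WT library. The mean of the 105 genes more than 60 Mb away at the centromeric end was 2.83, 3.67 and 3.93 in matDKO, against 3.23, 3.63 and 4.13 in WT, with wide overlap. Within libraries with Y-linked RNA both stretches were apart, at 2.51 to 2.61 in matDKO against 3.31 to 3.57 in WT near Xist, and at 2.90 to 3.08 in matDKO against 3.23 to 3.50 in WT far from it. In that kind of library the median log2 change of the far centromeric genes was -0.26, beside -0.16 over all tested genes. Without Y-linked RNA it was -0.23, beside -0.05 over all tested genes. Within each kind the far centromeric median was thus below that of all genes.

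**Figure D4:**
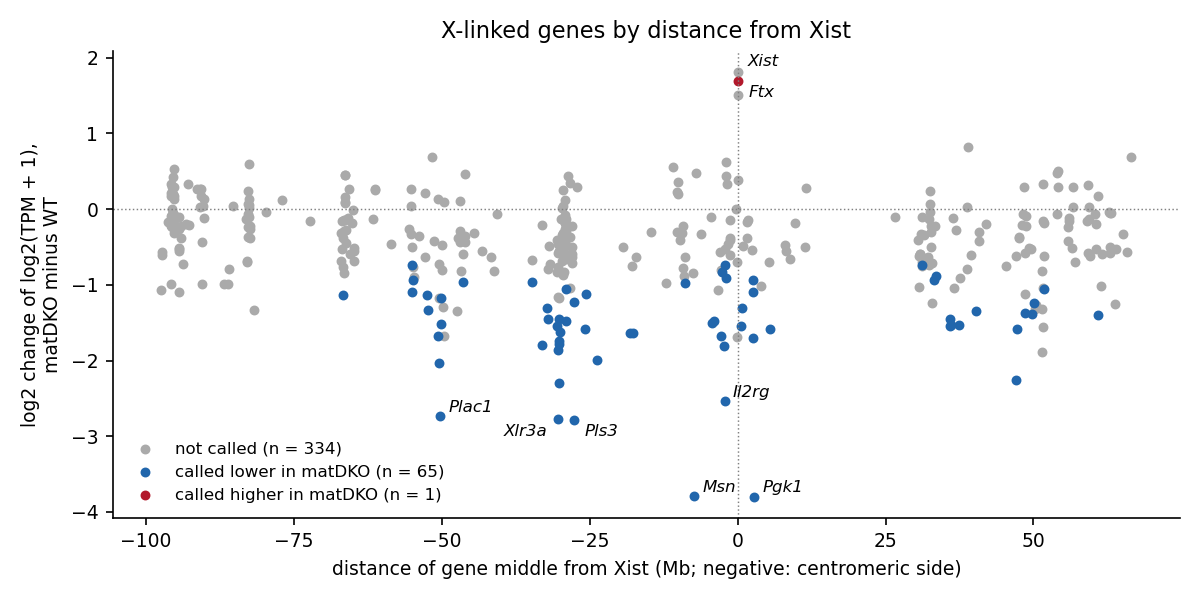
Log2 change (matDKO minus WT) of 400 tested X-linked genes by the distance of the gene's middle from Xist in Mb, negative towards the centromere. Blue marks the 65 genes called lower, red the 1 called higher and grey the 334 not called. Blue points fill the stretch within 60 Mb on both sides and are nearly missing at the left end.

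The largest fall of any tested gene was that of Gm8210 (chromosome 1, 43189052 to 43189773), annotated as a processed pseudogene. It stood at 3.83, 8.01 and 13.7 TPM in matDKO libraries, against 245, 274 and 317 TPM in WT libraries (log2 change -4.998 ± 0.15, adjusted p = 4.75e-17). Rpl29, which encodes a ribosomal protein of the large subunit (chromosome 9, 106428889 to 106431568), stood at 595, 826 and 1148 TPM in matDKO libraries, against 470.2, 526 and 582 TPM in WT libraries, higher in every matDKO library (log2 change 0.66 ± 0.10, adjusted p = 5.63e-04). The Gm8210 transcript is identical to an Rpl29 transcript at 480 of 483 bases (99.4%), so both share reads and each value is uncertain. Their sum averaged 850.3 ± 144 TPM in matDKO and 806 ± 55.9 TPM in WT libraries. In matTKO replicates 5, 7, 9 and 10 Gm8210 was at 7.21 to 10.1 TPM and Rpl29 at 705 to 918 TPM, and in the other 6 Gm8210 was at 245 to 289 TPM and Rpl29 at 368 to 554 TPM. LOC102634483, a gene matched to no chromosome, divided the libraries in the same way, at 0 to 0.09 TPM in matDKO and 11.8 to 17.7 TPM in WT. In oocytes Gm8210 was at 0.83 RPKM in 1 WT library and 0.98 RPKM in 1 TKO library, while it was 30.5 to 69.7 RPKM in the other 7 of the DKO, TKO and WT libraries. Gm8210 therefore did not follow the genotype within matTKO morulae or oocytes, and the cause was not tested.

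Among named autosomal genes that fell, Cphx1, a homeobox gene of the early embryo, stood at 0, 0.295 and 9.72 TPM in matDKO libraries, against 0.1, 16.9 and 39.6 TPM in WT libraries, with overlap, and fell by 2.88 ± 0.54 on the log2 scale (adjusted p = 0.00828). Nat2, an acetyltransferase, averaged 1.88 ± 1.9 TPM in matDKO libraries and 17.3 ± 10.7 TPM in WT libraries and fell by 2.57. The unnamed gene Gm2560 fell by 2.16. Msx2, a homeobox gene under Polycomb control in many tissues, averaged 1.42 ± 1.26 TPM in matDKO libraries and 5.36 ± 2.95 TPM in WT libraries and fell by 1.37. Yaf2, a subunit of variant PRC1, stood at 0.39, 1.71 and 3.37 TPM in matDKO libraries, against 0.91, 6.46 and 10.5 TPM in WT libraries and fell by 1.34 ± 0.26 on the log2 scale (adjusted p = 0.0108).

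Of the genes that rose, Tmem64, a membrane protein, stood at 25.1, 32.2 and 45.8 TPM in matDKO libraries, against 14.8, 16.9 and 23.1 TPM in WT libraries, without overlap, and rose by 0.90 ± 0.13 on the log2 scale (adjusted p = 5.93e-04). Nfe2l1, a transcription factor of the proteasome stress response, stood at 20.1, 27 and 39.8 TPM in matDKO libraries, against 8.77, 15.9 and 19.3 TPM in WT libraries, also without overlap, and rose by 0.87 ± 0.16 on the log2 scale (adjusted p = 0.00586). Myadm, a membrane protein known as a myeloid differentiation marker, averaged 182 ± 25.1 TPM in matDKO libraries and 113 ± 22.3 TPM in WT libraries and rose by 0.70 ± 0.12 on the log2 scale (adjusted p = 0.00271). Plod1 and Plod2, hydroxylases that modify collagen lysines, rose by 1.26 and 1.21, at means of 15.3 and 26.5 TPM in matDKO against 5.85 and 9.56 TPM in WT libraries. The osteocalcin copies Bglap2 and Bglap3, which can share reads, rose by 1.39 and 1.23. Ly6c1, a surface protein of a clustered family, averaged 24.6 ± 14.2 TPM in matDKO libraries and 6.62 ± 6.51 TPM in WT libraries and rose by 1.93. Lat2, an adaptor of immune cell signalling, rose by 1.34 and the nuclease Dnase1 by 1.29. The values listed under the small nucleolar RNA genes Snora23 and Snora81 rose by 1.23 and 1.18. Whether they come from the mature small RNAs in these polyA libraries was not tested. The pseudogene AA413626 rose by 1.503 and the noncoding RNA gene Platr4 by 1.22. Gm38437 and Mir3084-1 carry identical values, were listed at 0 in all 10 WT libraries and were above 0 in 6 of 10 matDKO libraries, at 10.8 to 21.1 TPM.

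Lineage genes were described next, because the morula precedes the split into trophectoderm, the outer layer that forms the placenta, and inner cell mass. Cdx2, a transcription factor that specifies trophectoderm (chromosome 5, 147300900 to 147307249), stood at 3.64, 8.61 and 12.9 TPM (lowest, median and highest) in matDKO libraries, against 9.1, 15.9 and 24.7 TPM in WT libraries. The groups overlapped, and Cdx2 fell by 0.89 ± 0.23 on the log2 scale (adjusted p = 0.0446). The call was narrow: it was lost in 23 of 34 alternatives, with adjusted p between 0.0507 and 0.727 in those, and without the 3 libraries that stood apart the adjusted p was 0.0508. The keratin Krt8 stood at 26.2, 609 and 885 TPM in matDKO libraries, against 327, 957 and 1573 TPM in WT libraries and was not called (log2 change -1.24 ± 0.47, adjusted p = 0.155), nor was its partner Krt18 (log2 change -1.36 ± 0.52, adjusted p = 0.161). Eomes, another trophectoderm factor, stood at 0.19, 6.5 and 11.7 TPM in matDKO libraries, against 1.69, 10.7 and 20.4 TPM in WT libraries (log2 change -1.35 ± 0.46, adjusted p = 0.121), with matDKO replicates 6, 8, 9 and 10 below 1 TPM, and Gata3 averaged 99.1 ± 27.2 TPM in matDKO libraries and 129.6 ± 29.1 TPM in WT libraries (log2 change -0.41 ± 0.19, adjusted p = 0.224). Of 38 tested trophectoderm genes 2, Cdx2 and Plac1, were lower and none was higher, with a median of -0.41 against -0.10 over all genes. There were 17 at an unadjusted p under 0.05, which 2449 of all 12733 tested genes (19.2%) reached. The mean log2 level of this list was 3.71, 5.60 and 6.57 (lowest, median and highest) in matDKO libraries, against 5.11, 6.11 and 6.57 in WT libraries. The lowest values belonged to matDKO replicates 8 and 9 and, in WT, to replicate 9, which also had the highest 2-cell-stage levels. Leaving out these 3 libraries thus removes the lowest trophectoderm means of each group, so it is no separate check of this list. MatDKO replicate 6, at 4.99, was kept although it lay below WT replicate 9, at 5.11. Without the 3 libraries that stood apart Plac1 was the 1 lower gene of the list, and the list median was -0.25 against -0.09 over all genes. There were 18 of 38 (47.4%) at an unadjusted p under 0.05, against 22.1% of all genes. The mean level of the list was then 4.99, 5.999 and 6.57 (lowest, median and highest) in 8 matDKO libraries, against 5.84, 6.13 and 6.57 in 9 WT libraries. The log2 changes of Krt8, Krt18, Eomes and Gata3 were then -0.78, -0.87, -1.12 and -0.32, and none was called in limma (adjusted p between 0.0702 and 0.164). In whole morulae fewer cells of a type and less RNA per cell cannot be told apart.

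Pluripotency genes gave 0 calls among 29 tested in limma, with 5 at an unadjusted p under 0.05 and a median of 0.04. Pou5f1, which encodes OCT4, averaged 133 ± 35 TPM in matDKO libraries and 171 ± 41.2 TPM in WT libraries (log2 change -0.38 ± 0.18, adjusted p = 0.237), and Nanog 104 ± 28.3 TPM in matDKO libraries and 92.3 ± 31.4 TPM in WT libraries (log2 change 0.20 ± 0.19, adjusted p = 0.563). Sox2 stood at 0.06, 4.47 and 20 TPM in matDKO libraries, against 4.03, 10.4 and 18.2 TPM in WT libraries (log2 change -0.96 ± 0.46, adjusted p = 0.256), and its matDKO libraries spread more widely than the WT ones. Tdgf1, a coreceptor of Nodal signalling, averaged 31.3 ± 25.2 TPM in matDKO libraries and 11.2 ± 8.31 TPM in WT libraries and missed the threshold (log2 change 1.38 ± 0.39, adjusted p = 0.07). Primitive endoderm genes gave 0 calls among 19 in limma, with 3 at an unadjusted p under 0.05 and a median of 0.13. Gata6, which specifies that lineage, averaged 109.8 ± 24.5 TPM in matDKO libraries and 105 ± 16.5 TPM in WT libraries. Other markers of the lineage differed from it. Sox17 had a median of 0.26 TPM in matDKO, with 4 libraries at 0, against 2.39 TPM in WT, with overlap. The medians were 6.74 TPM in matDKO and 7.96 TPM in WT for Pdgfra, and 0.415 TPM in matDKO and 0.41 TPM in WT for Gata4. Sox2, Tdgf1, Pou5f1, Nanog, Krt8, Krt18, Eomes and Gata3 were singled out after their values were seen.

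**Figure D5:**
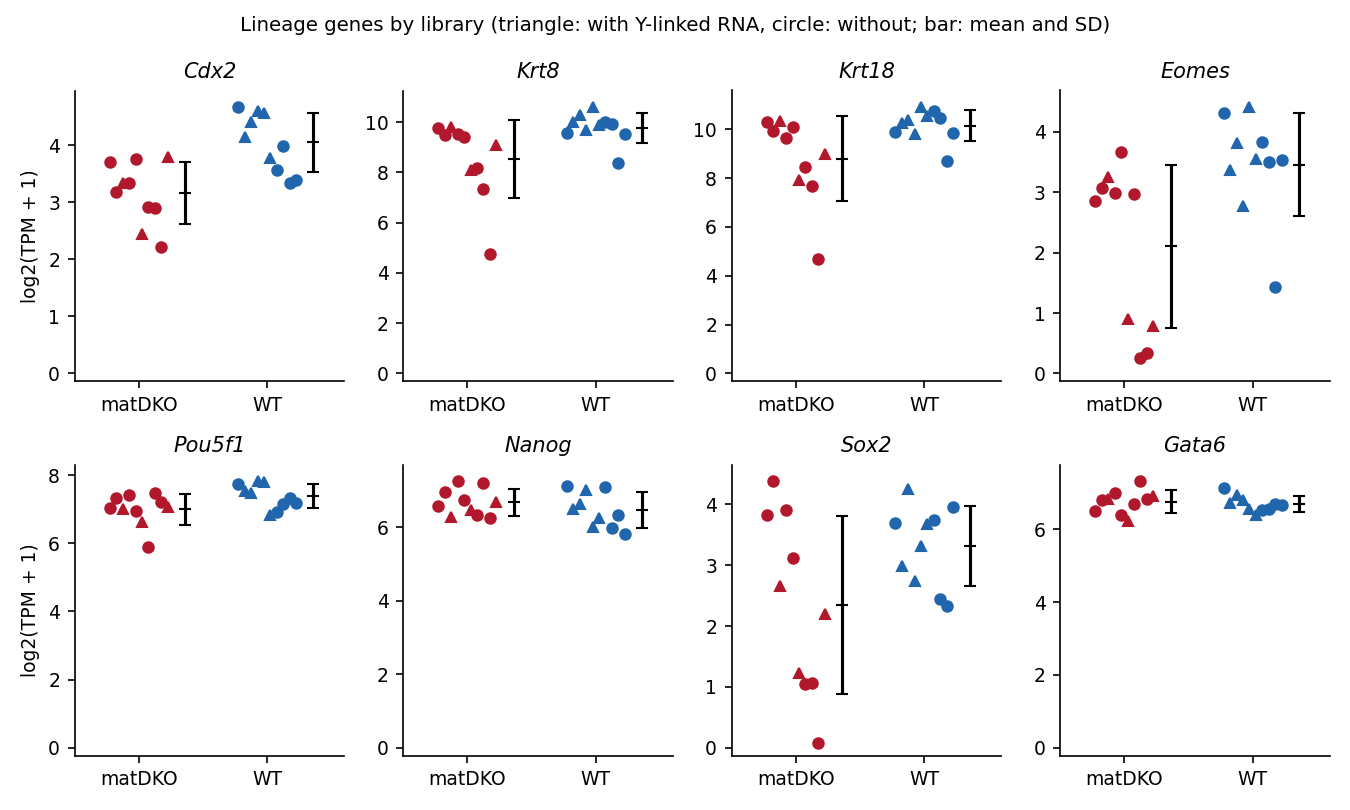
Level (log2 of TPM + 1) of 8 lineage genes in each matDKO library (red, left) and WT library (blue, right), with the mean and SD as black bars and triangles for libraries with Y-linked RNA. The upper row holds trophectoderm genes, of which Cdx2 was called lower, and the lower row holds the pluripotency genes Pou5f1, Nanog and Sox2 and the primitive endoderm gene Gata6, which were not called.

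Noncanonically imprinted genes were then examined, since their silence on the maternal allele is set in the oocyte. Of 31 listed genes 21 were tested, Xist among them, and limma called 0, with 4 at an unadjusted p under 0.05 and a median log2 change of 0.07. Without Xist 3 of 20 (15%) were at an unadjusted p under 0.05, against 19.2% of all tested genes, and the median was 0.05. Sfmbt2, a Polycomb-related gene needed for the placenta, averaged 25 ± 15.2 TPM in matDKO libraries and 20.6 ± 5.94 TPM in WT libraries (log2 change 0.02 ± 0.36, adjusted p = 0.98). Gab1, a signalling adaptor, averaged 15.3 ± 4.36 TPM in matDKO libraries and 17 ± 3.41 TPM in WT libraries (-0.17), Slc38a4, an amino acid transporter, 69.1 ± 34.9 TPM in matDKO libraries and 58.7 ± 15.6 TPM in WT libraries (-0.03), Jade1, a histone acetylation cofactor, 17.8 ± 4.91 TPM in matDKO libraries and 15.7 ± 4.9 TPM in WT libraries (0.18), and Smoc1, a matrix protein, 3.76 ± 2.07 TPM in matDKO libraries and 3.03 ± 1.88 TPM in WT libraries (0.28). The largest positive changes after Xist were those of the noncoding RNA gene Platr20 (0.58), the transcription factor genes Etv6 (0.53) and Sox21 (0.47) and Epas1 (0.40), and the largest negative ones those of the splicing regulator Mbnl2 (-0.56) and of Rbp2 (-0.52). Hunk stood at -0.39, Smoc1 and Jade1 at the values given, and Bbx, Runx1, Rbms1, Enc1, Otx2, Slc38a1, Tle3 and Gramd1b between -0.24 and 0.16. The tables do not separate the alleles, so expression of the maternal copy cannot be read from these levels. Among 36 tested genes imprinted through DNA methylation limma also called 0, with 8 at an unadjusted p under 0.05 and a median of -0.10; Gnas averaged 114 ± 24.2 TPM in matDKO libraries and 156 ± 34.1 TPM in WT libraries (log2 change -0.44 ± 0.14, adjusted p = 0.0952) and Snrpn 165 ± 41.3 TPM in matDKO libraries and 168 ± 42.7 TPM in WT libraries.

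Calls among genes of the Polycomb and Trithorax machinery were set beside all tested genes, of which 0.448% were higher and 1.45% lower. Of 28 tested variant PRC1 genes 2 (7.14%) were lower, Yaf2 and the deleted gene Pcgf1. Aebp2, an accessory subunit of PRC2 (the complex that places H3K27me3), averaged 40.1 ± 9.96 TPM in matDKO libraries and 25.9 ± 5.42 TPM in WT libraries and rose by 0.60 ± 0.15 on the log2 scale (adjusted p = 0.0372), as the only call among 11 PRC2 genes. Limma called 0 of 10 canonical PRC1 genes and 0 of 21 MLL and COMPASS genes, with 2 and 4 at an unadjusted p under 0.05. Of 129 developmental regulators that Polycomb represses in many cells, 24 passed the filter. Lbx2, a homeobox gene (chromosome 6, 83086365 to 83088243) that neighbours Pcgf1, was the only one higher, at 0.17, 6.67 and 9.31 TPM in matDKO libraries, against 0, 1.21 and 4.48 TPM in WT libraries (log2 change 1.38 ± 0.34, adjusted p = 0.0374), and Msx2 and Cdx2 were lower. A target that is silent in WT enters the test only through a level in matDKO, so the 24 are not all targets.

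Other lists were counted in the same way, beside 1.9% of all tested genes called in either direction. Of 31 tested germline genes 1 was higher, Mov10l1, a helicase of the piRNA pathway, at 0.69, 4.92 and 7.68 TPM in matDKO libraries, against 0.16, 0.795 and 1.81 TPM in WT libraries (log2 change 1.31 ± 0.29, adjusted p = 0.0224). Gja1, the gap junction protein connexin 43, averaged 342 ± 50 TPM in matDKO libraries and 246 ± 60 TPM in WT libraries and rose by 0.50, with Msn and Rdx as the 2 lower among 43 junction and polarity genes. Slc7a5, an amino acid transporter of the integrated stress response, averaged 21.4 ± 3.54 TPM in matDKO libraries and 12.8 ± 4.97 TPM in WT libraries and rose by 0.77, alone among 26 stress genes. Limma called 0 of 18 maternal oocyte genes, 0 of 15 DNA methylation genes, 0 of 30 p53 and apoptosis genes, 0 of 24 metallothionein and antioxidant genes, 0 of 25 cell cycle genes, 0 of 18 deubiquitinase and demethylase genes, 0 of 6 Y-linked genes, 0 of 17 genes of the 2-cell stage and 0 of 2 blood and stroma genes. At an unadjusted p under 0.05, which 19.2% of all tested genes reached, these lists held 3, 4, 5, 8, 7, 2, 1, 0 and 0 genes. The antioxidant list, with 8 of 24, had a median of -0.37, and 2 of its 24 changes were positive. Of 4 tested granulosa genes among 21 listed, Gja1 was the 1 higher, 3 were at an unadjusted p under 0.05, and the median of 0.48 was the highest of all list medians. The summed level of the granulosa list was 326 to 515 TPM in matDKO libraries, against 212 to 372 TPM in WT libraries, most of it from Gja1, and its part in the results was not tested. Among the most abundant members of these lists, Dppa3, a maternal protein that protects DNA methylation, averaged 2252 ± 341 TPM in matDKO libraries and 2798 ± 546 TPM in WT libraries (log2 change -0.30 ± 0.12, adjusted p = 0.156). Khdc3, of the subcortical maternal complex, averaged 642 ± 212 TPM in matDKO libraries and 873 ± 132 TPM in WT libraries (log2 change -0.52 ± 0.19, adjusted p = 0.142). The metallothionein gene Mt1 averaged 13799 ± 3888 TPM in matDKO libraries and 14295 ± 1416 TPM in WT libraries (-0.11), the cofactor gene Dnmt3l 61.3 ± 13.1 TPM in matDKO libraries and 70.1 ± 14 TPM in WT libraries (-0.20), the apoptosis gene Bax 311 ± 38.1 TPM in matDKO libraries and 344 ± 36.9 TPM in WT libraries (-0.15) and the cyclin gene Ccnb1 160.5 ± 28.8 TPM in matDKO libraries and 188 ± 34.6 TPM in WT libraries (-0.22).

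Oocyte and morula changes were set beside each other, since the deletion acts first in the oocyte. In DKO against WT full-grown oocytes (3 libraries each, RPKM) 2243 of 12417 tested genes (18.1%) were higher and 1480 (11.9%) lower, many more than in morulae. The balance turned with the scaling, since quantile normalization gave 1875 higher and 2133 lower. Pcgf1 stood at 10.6, 12.9 and 13.4 RPKM in DKO oocytes, against 1094, 1153 and 1077 RPKM in WT oocytes. Of 1619 genes higher in DKO oocytes and tested in morulae, 6 (0.371%) were higher and 32 (1.98%) lower in matDKO morulae. Of 892 genes lower in oocytes 1 (0.112%) was higher and 17 (1.91%) lower, and of 6559 not called in oocytes 23 (0.351%) were higher and 103 (1.57%) lower. Among the 6 genes higher at both stages were Lbx2, at 99.2, 74.1 and 77.2 RPKM in DKO oocytes against 4.63, 3.88 and 5.90 RPKM in WT oocytes, Plod2, at 14.9, 7.19 and 4.22 RPKM in DKO oocytes against 0.07, 0.25 and 0.22 RPKM in WT oocytes, Mov10l1 and Myadm.

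Of the 65 X-linked genes lower in matDKO morulae, 48 were tested in oocytes, where 12 were higher, 6 lower and 30 not called. Over all X-linked genes tested at both stages, 68 were higher, 23 lower and 173 not called in oocytes. The shares of these that were lower in morulae were 17.6%, 26.1% and 17.3%. X-linked genes higher in oocytes were thus lower in morulae about as often as those not called. Pgk1 was higher in DKO oocytes, at 29.3, 27.0 and 26.5 RPKM, against 20.7, 19.6 and 20.3 RPKM in WT oocytes. Plac1 was higher in DKO oocytes as well, at 23.2, 13.9 and 15.3 RPKM, against 2.91, 4.06 and 3.39 RPKM in WT oocytes. Xlr3b, Xlr5b and Xlr5c were lower at both stages, whereas Xlr3a stood at 180.2, 190.3 and 188 RPKM in DKO oocytes, against 207, 184 and 187 RPKM in WT oocytes, and was not called there. Xist and Ftx were listed at 0 in all 6 oocyte libraries.

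The matTKO libraries, which lack maternal Mll2 as well, were set beside the matDKO libraries for the same genes; 8 of 10 held Y-linked RNA. Over all genes limma called 4 of 12733 (0.0314%), and all were higher in matTKO. They were Gm8210, treated above, the X-linked gene Lonrf3 (3.46 TPM in matTKO and 1.13 TPM in matDKO), Platr5 (4.99 TPM in matTKO and 1.09 TPM in matDKO) and the small GTPase gene Rabl2 (20.6 TPM in matTKO and 8.28 TPM in matDKO, log2 difference 1.25 ± 0.18, adjusted p = 6.48e-04). Of the 65 X-linked genes 0 were called, 14 had an unadjusted p under 0.05, the median difference was 0.30 and 11 were below 0. These genes were selected by their low values in these same matDKO libraries, so higher values in matTKO do not show a recovery. The same holds for Pgk1, Msn and Pls3, which had some of the largest falls. Over all 400 tested X-linked genes the median difference was -0.05. Pgk1 averaged 9.46 TPM in matTKO and 3.25 TPM in matDKO, Msn 5.18 TPM in matTKO and 1.85 TPM in matDKO, and Pls3 6.45 TPM in matTKO and 2.07 TPM in matDKO. The Xist median was 30.2 TPM in 8 matTKO and 27.1 TPM in 3 matDKO libraries with Y-linked RNA, and 54.2 TPM in 2 matTKO and 60.3 TPM in 7 matDKO libraries without it.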

How the data were processed

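RNA of matDKO and WT morulae was taken from 1 table with 35842 genes that the authors deposited for all morulae. The submitters' processing notes name the builds mm10 and GRCm38 and the tools STAR 2.7.3 and 2.7.6, featureCounts 1.6.0, RSEM 1.3.1 and Trim Galore 0.6.4, without saying which made which table. The deposited morula table is titled RPKM, but each library sums to nearly 1 fixed total, so the authors' deposited values were read as TPM. The oocyte values are RPKM as deposited, and 27 date-like gene names were dropped from that table. Each table has its own normalization, and no test crosses tables. Depth is unknown, since whole-read steps could not be found among low values.

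Values were analysed as log2(value + 1), which understates changes of low genes, with limma 3.58.1 (lmFit and eBayes with trend) in R 4.3.3. A gene entered when its mean reached 1 in either group. Tests were two-sided with Benjamini-Hochberg adjustment over all tested genes, and calls needed an adjusted p under 0.05. Errors are standard errors for log2 changes and SDs for levels. Changes with and without Y-linked RNA (summed level above or below 5 TPM) came from 1 fit of all 4 groups, a split chosen after seeing the data. The script was tested on simulated data. RefSeq GRCm38.p6 gave chromosomes for 12383 of 12733 tested genes (33389 of 35842 symbols matched with synonyms). Named genes were the deleted genes and Kmt2b, the 15 largest changes and 5 smallest p in each direction, up to 4 called members of each list (or the 2 most abundant where none was called) and all tested noncanonically imprinted genes. The members and lists were chosen with earlier results of these data known. The mitochondrial list had 0 of 13 genes in the table. Same-numbered matDKO and WT libraries were not treated as pairs, since only 3 of 10 same-number correlations passed 0.1. Columns of samples that could not be mapped numbered 0.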

Additional observations from a re-analysis of the deposited data

Results flagged for a closer look

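Of 264 groups of 10 library values checked, 26 held 1 library far from the rest by Dixon's criterion, which chance gives about 1 in 20 groups. Most of these values belonged to 3 libraries. In matDKO replicate 9 the lowest value lay apart for Krt8 (26.25 TPM, next lowest 161.72), Krt18 (24.85 TPM, next 204.22), Gata3 (38.43 TPM, next 79.0), Rdx (7.86 TPM), Bmi1 (6.57 TPM) and Mbnl2 (0.46 TPM). In matDKO replicate 7, the library with the smallest X-linked share, it did for Hprt (196.38 TPM, next 646.24), Pou5f1 (58.41 TPM), Cdk4 (98.36 TPM), Sox21 (2.31 TPM) and Xlr3a (0.5 TPM). WT replicate 9 had the lowest Krt8 (327.13 TPM), Krt18 (408.93 TPM), Plac1 (0.2 TPM), G6pdx (2.26 TPM), Sfmbt2 (7.58 TPM) and Yaf2 (0.91 TPM) of the WT group, the lowest trophectoderm mean (5.11 on the log2 scale), and the highest Sp110 (501.19 TPM, next 68.32), Tmem64 (23.12 TPM) and Platr5 (4.74 TPM).

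Single values lay apart in other libraries. Lbx2 was at 0.17 TPM in matDKO replicate 3, whereas the other 9 matDKO libraries had at least 3.01 TPM. LOC102634483 was highest at 0.09 TPM in matDKO replicate 10. In WT, Gab1 was lowest at 9.78 TPM in replicate 10, Nono at 72.66 TPM in replicate 4 and Xlr5b at 0.4 TPM in replicate 8.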

How the results depend on the processing

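No named gene's call changed direction under an alternative. The counts of 57 higher, 185 lower and 65 X-linked lower genes moved most. They were 11, 58 and 33 with no filter on low values. Quantile normalization raised the higher calls to 128 and median-ratio scaling to 96. Higher and lower calls numbered 165 and 298 with library weights, 17 and 85 with the Y-linked level as a covariate, and 96 and 96 with the trophectoderm level as a covariate. In alternatives chosen after seeing the data, separate fits gave 1, 25 and 15 with Y-linked RNA and 0, 6 and 3 without it, and 103 genes were higher without the 3 libraries that stood apart. Leaving out 1 library at a time gave 13 to 129, 62 to 471 and 38 to 83. The difference in X-linked share was -0.574 with Y-linked RNA, -0.8058 without it and without those 3 libraries, and -0.4738 to -0.2232 when 1 library was left out. Among autosomal genes 55 were higher and 116 lower, but 95 and 42 with the trophectoderm covariate. Oocyte calls (2243 higher, 1480 lower) turned to 1875 and 2133 with quantile normalization, were 2458 and 1289 with no filter, 2198 and 1439 with pseudocount 0.1 and 2081 and 1326 with a replicate block, and ranged over 1564 to 1873 and 882 to 1186 when 1 library was left out (950 lower without WT replicate 2 and 882 without WT replicate 3). Samples with the same number share only a number: same-number correlations ran between -0.129 and 0.572, and 1 of 10 libraries correlated best with its own number. A replicate block gave 89 higher, 357 lower and 72 X-linked lower genes and Xist an adjusted p of 0.0283. Of 59 called named genes, 59 stayed called with quantile, median-ratio, robust and block fits, 54 with weights, 51 without the 3 libraries, 50 with all 30 morulae, 47 with pseudocount 0.1, 37 and 35 with the Y-linked and trophectoderm covariates and 28 with no filter. In the separate fits, which hold fewer libraries, 13 of the 59 stayed called with Y-linked RNA and 5 without it. Unknown depth limits what can be said of genes near 0.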
